A study of Rattus norvegicus with 9 samples.

Results

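The serpins (serine protease inhibitors) were described in dorsal root ganglia (DRGs) of the rat, where the somata of sensory neurons lie. Members were all rows of the deposited gene table whose symbol starts with Serpin, which gave 41 of 20413 genes. The family was chosen because Serpina3n was much higher in the CPIP and CPIP+EA groups than in the Sham group of these same data, so those differences of Serpina3n are given as a description, with no test. The other 40 members entered by name alone.

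Most serpins are suicide inhibitors: the protease cleaves an exposed loop of the serpin and is then trapped in a covalent complex. Clade A holds secreted plasma inhibitors, clade B intracellular ones and clade E secreted inhibitors such as that of thrombin, while a few members inhibit no protease and act as hormone carriers or as a collagen chaperone. In nervous tissue, serpins are known for restraining plasminogen activators, thrombin and leukocyte proteases around neurons and glia.

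The study examined chronic post-ischemia pain (CPIP), a rat model of complex regional pain syndrome type I, and its treatment by electroacupuncture (EA), in which needles at acupoints carry current. RNA-Seq of the right (ipsilateral) L4-6 DRGs at day 10 gave 9 libraries, 3 in each of 3 groups. All rats were male Sprague Dawley (an outbred stock) of 8 to 10 weeks and were anesthetized. CPIP rats had 3 h of hind limb ischemia from a tight O-ring at the ankle, then reperfusion. CPIP+EA rats had the same injury and EA at 100 Hz once a day for 10 days at ST36 and BL60 of both hind limbs. Sham rats, labelled Con, wore a cut O-ring that left blood flow intact, and the sources used here describe no needling in the Sham or CPIP group. The methods state that RNA of 3 rats of each group went into the libraries, which for 3 libraries a group is 1 rat each, so p-values measure the spread between rats within these groups. Values are FPKM, fragments mapped to a transcript relative to its length and to the library's total, a scale per length on which levels of different genes can be compared. No read counts were used, and the depth behind single values is unknown.

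The promoters of the 4 serpins whose CPIP libraries all lay above all Sham libraries are printed here, because their values carry most of what follows. Each runs from 250 bases before to 50 bases after the RefSeq start, 5′ to 3′, in build GRCr8. Serpina3n lies at chr6:129088142-129088441 on the plus strand, Serpina1 at chr6:128653076-128653375 on the minus strand, Serpinb2 at chr13:24055771-24056070 on the plus strand and Serpini1 at chr2:162645112-162645411 on the plus strand. Capitals mark matches to 5 motifs searched on both strands.
Serpina3n: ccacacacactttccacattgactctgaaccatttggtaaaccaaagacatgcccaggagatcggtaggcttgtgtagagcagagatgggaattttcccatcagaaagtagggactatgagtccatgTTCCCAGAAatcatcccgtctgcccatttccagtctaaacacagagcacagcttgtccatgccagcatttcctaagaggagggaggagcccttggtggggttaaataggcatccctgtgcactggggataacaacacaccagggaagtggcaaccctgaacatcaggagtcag
Serpina1: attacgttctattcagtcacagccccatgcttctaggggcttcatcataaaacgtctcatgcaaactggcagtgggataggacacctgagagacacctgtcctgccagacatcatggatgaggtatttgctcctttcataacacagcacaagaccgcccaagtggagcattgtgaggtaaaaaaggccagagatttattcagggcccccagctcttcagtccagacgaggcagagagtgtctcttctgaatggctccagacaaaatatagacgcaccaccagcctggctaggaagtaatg
Serpinb2: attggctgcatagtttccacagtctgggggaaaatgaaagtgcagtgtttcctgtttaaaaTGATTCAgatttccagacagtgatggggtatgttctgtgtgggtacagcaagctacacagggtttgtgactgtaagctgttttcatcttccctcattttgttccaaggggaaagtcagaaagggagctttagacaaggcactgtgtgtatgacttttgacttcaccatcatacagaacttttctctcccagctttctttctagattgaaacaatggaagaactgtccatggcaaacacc
Serpini1: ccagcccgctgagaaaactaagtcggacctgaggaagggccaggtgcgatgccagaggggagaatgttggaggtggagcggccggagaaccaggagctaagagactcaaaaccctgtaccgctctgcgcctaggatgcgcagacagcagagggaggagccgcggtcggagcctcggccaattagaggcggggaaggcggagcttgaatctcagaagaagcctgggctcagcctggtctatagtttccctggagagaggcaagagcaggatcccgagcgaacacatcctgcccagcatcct
The motifs were STAT (TTCNNNGAA), AP-1 (TGANTCA), C/EBP (TTNNGCAA), CRE (TGACGTCA) and the core promoter box TATAAA, none of which overlapped another match in these 4 windows. The Serpina3n window held 1 STAT match, TTCCCAGAA, at -123 to -115 from the start. The Serpinb2 window held 1 AP-1 match, TGATTCA, at -189 to -183, and the Serpina1 and Serpini1 windows held none of the 5. Such matches were common: of 27457 RefSeq promoters of this length, 8.68% held the STAT letters, 7.33% the AP-1 letters, 10.5% the C/EBP letters, 1.91% the CRE letters and 14.3% the core box letters. RefSeq promoters were matched for 33 of the 41 members, of which 3 held the STAT letters, 4 the AP-1 letters, 5 the C/EBP letters, 0 the CRE letters and 7 the core box letters. The 3 with STAT letters were Serpina11, Serpina3n and Serpinb6, which RefSeq names Serpinb6a.

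DRGs expressed a minority of the family at more than trace level. Of the 41 members, 12 had a mean of at least 5 FPKM over the 9 libraries, 15 a mean of at least 1 FPKM and 20 a mean of at least 0.1 FPKM, the minimum for testing. Of the 17 clade B members 8 passed that minimum, and of the 13 clade A members 4 did. All 3 clade E members, both clade F members, the single clade G and clade H members and 1 of the 2 clade I members passed it too. The 21 members below the minimum reached at most 0.29 FPKM in any library, and 4 of them, Serpinb3, Serpina6, Serpinb12 and Serpina5, were listed at 0 in all 9. Among those 21 were Serpinc1 (antithrombin) at group means of 0.0533 to 0.147 FPKM, and Serpina7, the thyroxine-binding globulin, above 0 in 1 library. Serpina16 took only the values 0, 0.04, 0.08 and 0.12 FPKM, so differences between such values are near the smallest step of the table and were not tested.

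**Figure D1:**
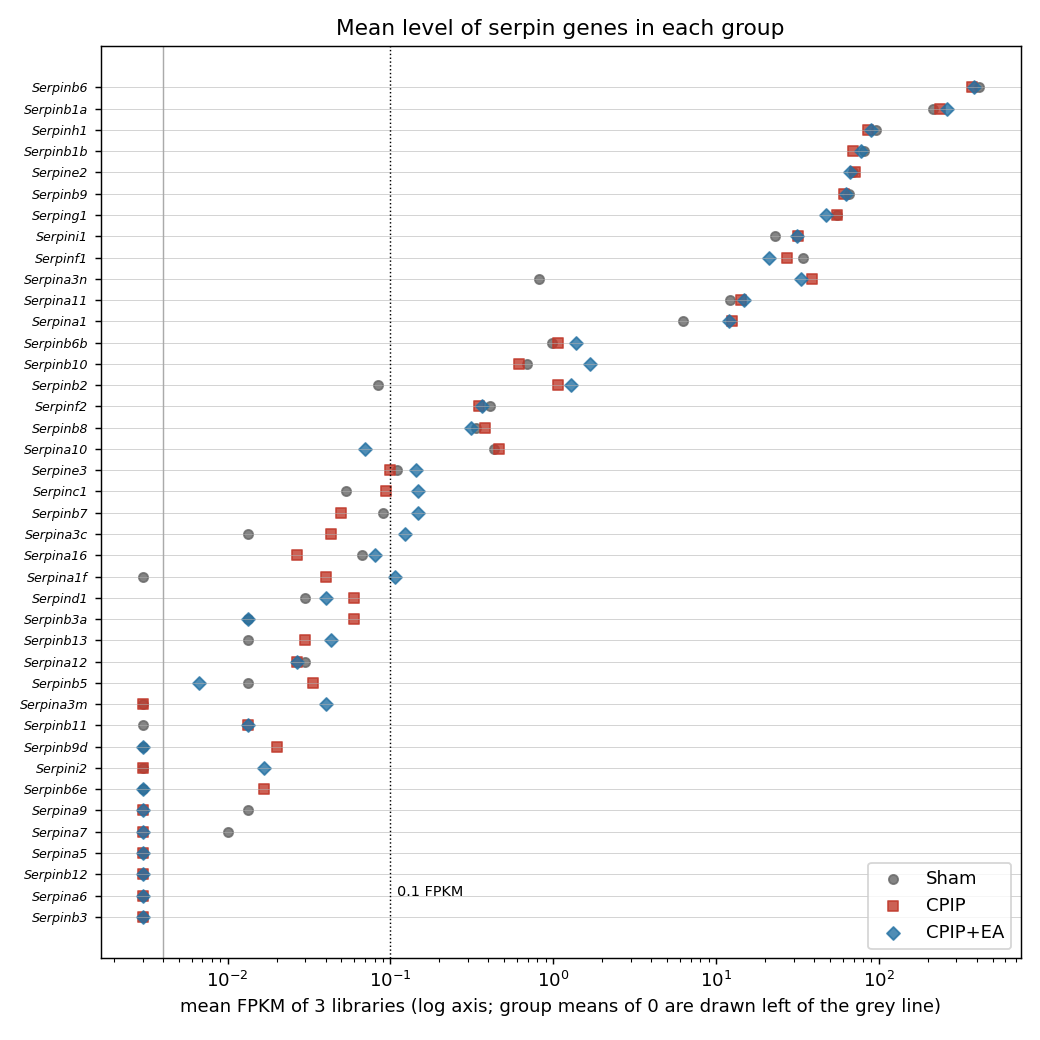
Mean FPKM of 40 of the 41 serpin genes per group (Sham, CPIP, CPIP+EA, 3 libraries each), on a log axis; means of 0 are drawn left of the grey line and the dotted line is the testing minimum of 0.1 FPKM. The 3 symbols of a gene lie close together for most members above 5 FPKM, and Serpina3n and Serpinb2 have their Sham symbol far to the left.

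The summed level of the family overlapped between groups. The 41 members summed to 1079 ± 3.51 FPKM in Sham, 1088 ± 18.6 with CPIP and 1112 ± 67.2 in CPIP+EA (mean ± SD, n = 3 each), which was 0.235%, 0.235% and 0.237% of all FPKM. The clade B genes Serpinb6 and Serpinb1a together made up 53.8% to 60.5% of the family in every library. Serpina3n was 0.0354% to 0.149% of the family's FPKM in Sham libraries, 2.55% to 5.37% with CPIP and 2.34% to 3.47% in CPIP+EA.

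Serpina3n encodes a secreted inhibitor of the alpha-antichymotrypsin group, which acts on chymotrypsin-like and leukocyte proteases and is a known acute phase and injury gene of glia and neurons. Its Sham libraries had 1.61, 0.38 and 0.45 FPKM, its CPIP libraries 28.8, 59.3 and 27.8 FPKM and its CPIP+EA libraries 33.5, 40.5 and 26.6 FPKM. All 6 libraries of injured rats lay above all 3 Sham libraries, and the CPIP and CPIP+EA libraries overlapped. The means were 0.813 ± 0.691 FPKM in Sham, 38.7 ± 17.9 with CPIP and 33.5 ± 6.98 in CPIP+EA (SD, n = 3), ratios of 47.5 for CPIP over Sham and 41.2 for CPIP+EA over Sham. On the scale of log2(FPKM + 0.5), which understates changes of low genes, these differences were 4.93 and 4.79. The Sham mean rests mostly on Sham replicate 1, and without that library they were 5.33 and 5.20. The difference between CPIP+EA and CPIP was no part of the choice and was tested: it was -0.13 with a 95% interval of ± 0.855 and an adjusted p of 0.997 by limma. That interval is wide, so the test does not show that EA left the gene as it was. In bulk tissue, more cells of a type and more RNA per cell cannot be told apart, and that holds for every level given here.

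Serpina1, alpha-antitrypsin, is the main secreted inhibitor of neutrophil elastase and, like Serpina3n, lies on chromosome 6. It had 7.04, 5.16 and 6.73 FPKM in Sham, 11.1, 14.4 and 11.9 with CPIP and 12.0, 14.3 and 9.75 in CPIP+EA. All libraries of injured rats lay above all Sham libraries, at close to 2-fold the Sham mean (ratios 1.98 and 1.90). The log2 difference was 0.93 (SE 0.16, adjusted p = 0.0395, limma) for CPIP against Sham and 0.87 (adjusted p = 0.0361) for CPIP+EA against Sham, so neither passed the adjusted p threshold of 0.01 used for a call. Against CPIP, CPIP+EA differed by -0.06 ± 0.364 (95% interval) on the log2 scale.

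Serpinb2, plasminogen activator inhibitor type 2, inhibits urokinase, is made by macrophages and other cells under stress, and is low in most resting tissue. Its Sham libraries had 0, 0.19 and 0.06 FPKM, its CPIP libraries 0.69, 1.08 and 1.45 and its CPIP+EA libraries 1.39, 1.22 and 1.25. The Sham libraries lay below all others, and all values were low. The means were 0.0833 ± 0.0971 FPKM in Sham, 1.07 ± 0.38 with CPIP and 1.29 ± 0.0907 in CPIP+EA (SD, n = 3), ratios of 12.9 and 15.4 over Sham. These ratios rest on a Sham mean near 0, most of it from Sham replicate 2. The Sham mean lies below the minimum of 0.1 FPKM, so the gene entered the test through the groups where it is high. Because of that entry the family counts leave it out. The log2 difference of CPIP+EA against Sham was 1.63 (SE 0.19, adjusted p = 0.00396, limma), past the threshold. With the replicate number as a block in the fit the adjusted p was 0.0157, not past the threshold. With no minimum, so that all genes above 0 in any library were tested, the adjusted p was 0.00564. The call held in 3 of the 9 fits that left out 1 library: those without Sham replicate 2, CPIP replicate 1 or CPIP replicate 3. Without any of the other 6 (Sham 1 or 3, CPIP 2, CPIP+EA 1, 2 or 3) the adjusted p was 0.0113 to 0.0245. For CPIP against Sham the log2 difference was 1.42 (SE 0.19) with an adjusted p of 0.0106, just short of the threshold. It passed without CPIP replicate 1, at an adjusted p of 0.00827. CPIP+EA differed from CPIP by 0.21 ± 0.433 (95% interval). With a pseudocount of 0.1 in place of 0.5 the Serpinb2 differences against Sham were 2.76 for CPIP and 3.05 for CPIP+EA, so their size depends on that choice. Of 12 macrophage markers 3 (Aif1, C1qa, Cx3cr1) had all CPIP libraries above the Sham libraries, and 2 (Aif1, Cx3cr1) all CPIP+EA libraries, against 7.98% and 8.87% of all genes tested. The list's median log2 difference was 0.25 and 0.37 against Sham, and its part in the Serpinb2 values was not tested.

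Serpini1, neuroserpin, is secreted by neurons and inhibits tissue plasminogen activator. It had 22.2, 22.4 and 24.5 FPKM in Sham, 33.6, 27.8 and 34.6 with CPIP and 33.8, 32.5 and 28.4 in CPIP+EA. Again all Sham libraries lay below all others, at ratios of 1.39 and 1.37 between the means. The log2 difference was 0.46 (SE 0.10, adjusted p = 0.0909, limma) for CPIP against Sham and 0.44 (adjusted p = 0.0738) for CPIP+EA against Sham, neither past the threshold. CPIP+EA and CPIP differed by -0.01 ± 0.221. Of 18 sensory neuron markers 1 (Prph) had all CPIP libraries above the Sham libraries and 7 (Nefl, Nefm, Ntrk3, Prdm12, Rbfox3, Scn10a, Trpv1) all below, against 7.98% and 7.9% of all genes tested. In CPIP+EA against Sham Prph lay above and 3 (Prdm12, Rbfox3, Scn10a) below, against 8.87% and 7.32%. The median log2 difference of these markers was -0.15 and -0.20, and their part in the Serpini1 values was not tested.

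**Figure D2:**
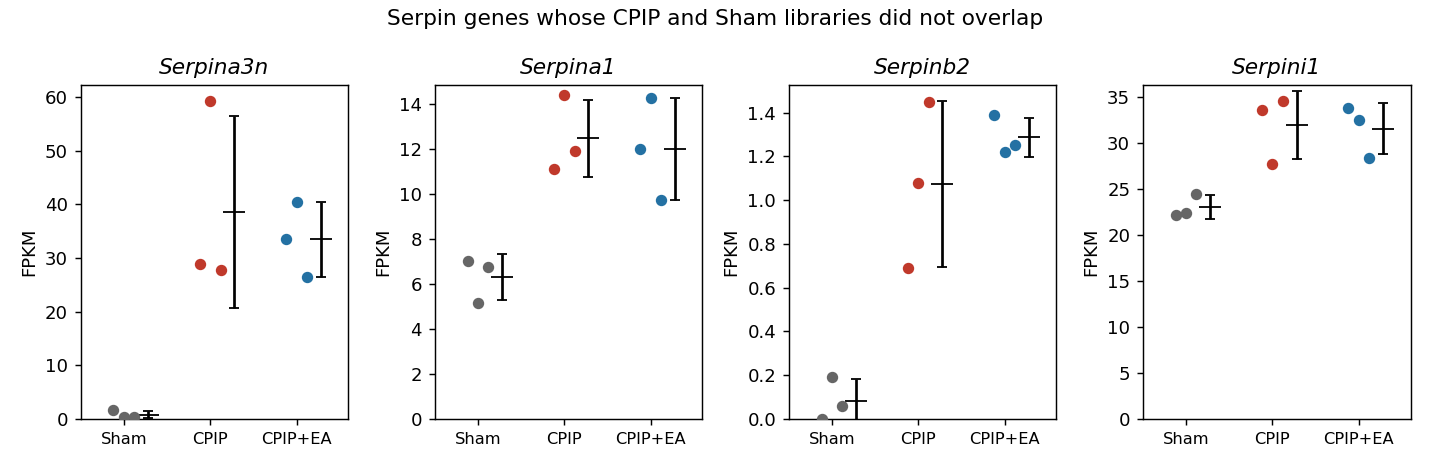
FPKM of Serpina3n, Serpina1, Serpinb2 and Serpini1 in each library, 1 panel per gene with its own axis from 0; points are libraries and bars the group mean ± SD (n = 3). In each panel the 3 Sham points lie below all 6 points of the CPIP and CPIP+EA groups, which overlap each other.

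The libraries of injured rats did not rank alike for these 4 genes. Among the 6 CPIP and CPIP+EA libraries, CPIP replicate 2 was highest and CPIP+EA replicate 3 lowest for both Serpina3n and Serpina1. CPIP replicate 3 was highest for both Serpinb2 and Serpini1, and the lowest was CPIP replicate 1 for Serpinb2 and CPIP replicate 2 for Serpini1.

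Counts over the family leave out Serpina3n, whose difference against Sham chose it, and Serpinb2 and Serpina10, each with a group mean under the testing minimum, so 17 tested members remain. In CPIP against Sham, 0 of the 17 passed the threshold of adjusted p under 0.01 and 1.5-fold by limma. Among all 17187 genes tested 0.355% passed, 0.343% as higher and 0.0116% as lower. At an unadjusted p under 0.05 there were 2 of the 17, Serpina1 and Serpini1, where 8.66% of all genes were. The same pair had all CPIP libraries above the Sham libraries, against 7.98% of all genes, and 0 of the 17 lay entirely below, against 7.9% of all genes. Of the 17 members 7 had a positive log2 difference, and the median was -0.02, beside -0.0064 over all genes. The counts over all genes rest on single libraries: 61 genes passed with all libraries, and 30 to 62 with 1 left out, the fewest without Sham replicate 2 or CPIP replicate 3.

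In CPIP+EA against CPIP, 0 of the 17 members passed the threshold, and 0 of the 20 tested. Of all genes 0 passed, or 0%. With 1 library left out, 0 to 2 of all genes passed, and 1 did when the Sham libraries were left out of the fit. By limma's unadjusted p under 0.05, 0 of the 17 members passed, and 0 of the 20 tested, where 4.29% of all genes did. The member with non-overlapping libraries was Serpine3, a little-studied clade E gene, at 0.08 to 0.11 FPKM with CPIP and 0.14 to 0.15 in CPIP+EA, against 8.23% of all genes (4.84% higher, 3.4% lower). Its model overlaps that of Ints6 in RefSeq. The median log2 difference of the 17 members was 0.01, beside 0.012 over all genes. The largest difference was that of Serpinb10 (bomapin, of blood-forming cells), 0.79 ± 1.27 on the log2 scale, with CPIP+EA replicate 3 at 3.49 FPKM and the other 8 libraries at 0.12 to 1.26 FPKM. In the same library the summed neutrophil markers were 645 FPKM, against 35.8 to 272 in the other 8, and their part in Serpinb10 was not tested.

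In CPIP+EA against Sham, 0 of the same 17 members passed the threshold by limma, beside 0.483% of all genes, of which 0.477% were higher and 0.00582% lower. Here 83 genes passed with all libraries and 35 to 82 with 1 left out, the fewest without CPIP+EA replicate 2. At an unadjusted p under 0.05 there were 3 of the 17, Serpina1, Serpini1 and Serpinf1, where 12.2% of all genes were. All CPIP+EA libraries lay above the Sham libraries for 3 of the 17, Serpina1, Serpini1 and Serpina11, against 8.87% of all genes. They lay entirely below for 1 of the 17, Serpinf1, against 7.32% of all genes. The median log2 difference of the 17 members was -0.06, beside 0.0014 over all genes. The 3 comparisons share libraries pairwise, so their values are given side by side and not as separate support for each other.

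**Figure D3:**
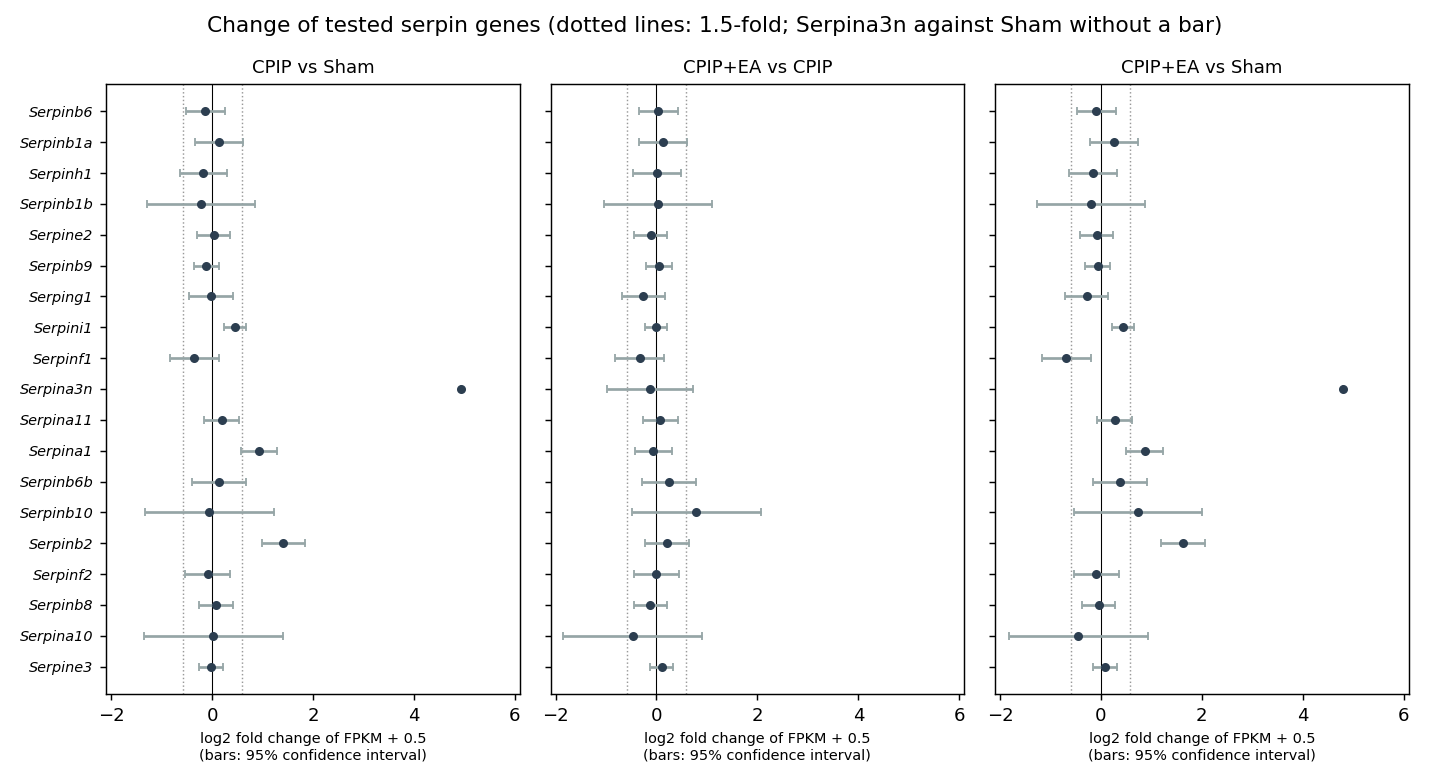
Log2 difference of 19 of the 20 tested serpin genes on the log2(FPKM + 0.5) scale in the 3 comparisons; points are limma estimates, bars 95% intervals and dotted lines 1.5-fold, and Serpina3n is drawn without a bar against Sham because its difference there chose the family. Most points lie near 0, and Serpina3n at 4.93 and 4.79, Serpinb2 at 1.42 and 1.63 and Serpina1 at 0.93 and 0.87 lie to the right in the comparisons against Sham.

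Of the remaining secreted members with a mean over 5 FPKM, Serpina11, a clade A gene beside Serpina1 on chromosome 6, had 12.8, 13.7 and 10.4 FPKM in Sham, 10.97, 16.7 and 15.0 with CPIP and 16.1, 14.6 and 13.8 in CPIP+EA. The lowest CPIP+EA library lay just above the highest Sham library, and the log2 difference of 0.27 had an adjusted p of 0.535 (limma). Serpinf1, pigment epithelium-derived factor, is a neurotrophic and antiangiogenic protein that inhibits no protease. It had 30.8, 32.0 and 39.8 FPKM in Sham, 28.4, 34.8 and 19.0 with CPIP and 19.0, 18.6 and 26.1 in CPIP+EA. All 3 CPIP+EA libraries lay below all Sham libraries, whereas CPIP overlapped both groups. The log2 difference for CPIP+EA against Sham was -0.68 (SE 0.21, adjusted p = 0.226, limma), which did not pass. Fibroblast markers summed to 1093 to 1334 FPKM in Sham, 970 to 1210 with CPIP and 654 to 1243 in CPIP+EA, with CPIP+EA replicates 1 and 2 lowest, and their part in the Serpinf1 values was not tested.

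Serping1, the inhibitor of the complement protease C1, had 56.6, 57.2 and 53.3 FPKM in Sham, 48.7, 61.7 and 55.1 with CPIP and 45.5, 33.6 and 62.8 in CPIP+EA. Serpine2, protease nexin, is a glia-derived inhibitor of thrombin. It had 66.1, 69.0 and 74.4 FPKM in Sham, 78.5, 79.9 and 57.5 with CPIP and 55.5, 68.0 and 75.2 in CPIP+EA. Both overlapped in all comparisons. Serpinh1, the collagen chaperone of the endoplasmic reticulum known as Hsp47, had 86.8, 100.2 and 103 FPKM in Sham, 91.4, 98.3 and 69.7 with CPIP and 65.2, 81.9 and 120 in CPIP+EA. The 2 lowest CPIP+EA libraries and 1 CPIP library lay below every Sham library, while CPIP+EA replicate 3 was the highest of all. Serpinf2 (antiplasmin), at 0.11 to 0.51 FPKM, and Serpina10, at 0 in 6 of 9 libraries, overlapped between groups.

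The most abundant serpins, Serpinb6 and Serpinb1a, belong to clade B, of whose 17 members 7 lie on chromosome 17 and 10 on chromosome 13. Serpinb6, an intracellular inhibitor of cathepsin G, had 438, 462 and 334 FPKM in Sham, 409, 391 and 322 with CPIP and 332, 349 and 479.9 in CPIP+EA. Serpinb1a, an intracellular inhibitor of neutrophil elastase and cathepsin G, had 212, 189 and 247 FPKM in Sham, 205, 206 and 305 with CPIP and 262, 326 and 196 in CPIP+EA. Its near copy Serpinb1b had 75.2, 55.2 and 113 FPKM in Sham, 53.4, 55.1 and 100.7 with CPIP and 94.4, 108 and 30.7 in CPIP+EA. The groups overlapped for all of these, and the spread within each group was large. Serpinb9, an inhibitor of granzyme B, had 68.6, 60.3 and 68.1 FPKM in Sham, 61.8, 53.8 and 66.7 with CPIP and 61.9, 72.0 and 55.3 in CPIP+EA, also overlapping. Serpinb6b, at 0.65 to 1.80 FPKM, and Serpinb8, at 0.19 to 0.46 FPKM, overlapped too. None of these 6 passed the threshold in any comparison.

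Within this cluster the same 4 libraries, Sham replicate 3, CPIP replicate 3 and CPIP+EA replicates 1 and 2, were the 4 highest for Serpinb1b and Serpinb1a and the 4 lowest for Serpinb6. These libraries come from all 3 groups. Nqo2, a quinone reductase gene whose model overlaps that of Serpinb6 in RefSeq, had 3.76 FPKM in Sham replicate 3, 2.92 in CPIP replicate 3 and 2.43 and 2.54 in CPIP+EA replicates 1 and 2, against 11.5 to 22.2 FPKM in the other 5. The sources used here do not state whether counting used strand, so reads shared by overlapping models cannot be set apart. The pattern was noticed from Serpinb1b after its values were seen and gets no test. Among the cluster and the 10 RefSeq genes on each side, 16 genes other than Serpinb1b were tested. Of these, 4 had these 4 libraries at one end (2 highest, 2 lowest) and 12 did not, whereas 1.77% of all 17187 tested genes did. Serpinb9, between Serpinb1b and Serpinb1a, did not. The 4 genes were Serpinb1a, the near copy of Serpinb1b, Serpinb6 and Nqo2, whose models overlap, and LOC100364958. Near copies and overlapping models can share reads, so the 4 genes are not separate observations and their count is a description only. None of the 11 cell type marker sums had the same 4 libraries at one end. Genotypes were not analysed here, and the cause of the pattern was not tested.

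**Figure D4:**
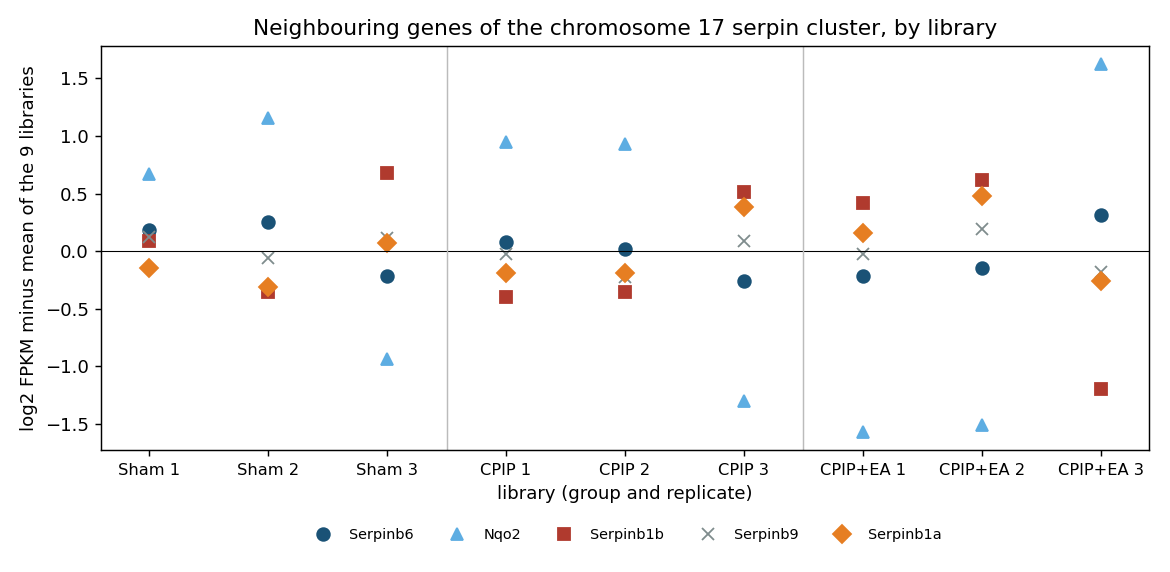
Log2 FPKM of Serpinb6, Nqo2, Serpinb1b, Serpinb9 and Serpinb1a on chromosome 17 in each library, minus the gene's mean over the 9 libraries. Sham replicate 3, CPIP replicate 3 and CPIP+EA replicates 1 and 2 lie above the other 5 for Serpinb1b and Serpinb1a and below them for Serpinb6 and Nqo2.

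Most members on chromosomes 6 and 13 stayed near 0. Chromosome 6 holds 12 members, of which Serpina3n, Serpina1, Serpina11 and Serpina10 passed the minimum and the other 8 stayed at or below 0.29 FPKM. Chromosome 13 holds 11, of which the neighbours Serpinb2, Serpinb10 and Serpinb8 passed and the other 8 stayed at or below 0.22 FPKM. Chromosome 17 holds 7, of which 5 passed. Near copies can share reads: RefSeq gives Serpin symbols to 6 further rows of the table that the rule did not take. Of these the row now named Serpina3l reached 0.65 FPKM in CPIP replicate 2. Summing all Serpina3 rows, an alternative chosen after the data were seen, gave 4.82 and 4.69 for Serpina3n on the log2 scale against Sham.

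The proteases and partners that serpins act on showed no call. Of the plasminogen activation genes 15 of 18 were tested and 0 passed in any comparison. Group libraries did not overlap, in either direction, for 5 of the 15 in CPIP against Sham, where 15.9% of all genes did not. In CPIP+EA against CPIP there were 2 (8.23% of all genes) and in CPIP+EA against Sham 4 (16.2%). By limma's unadjusted p under 0.05, 3 passed in CPIP against Sham (8.66% of all genes), 1 in CPIP+EA against CPIP (4.29%) and 4 in CPIP+EA against Sham (12.2%). The counts of the lists below are given in this order and stand against the same shares of all genes. Its most abundant members, S100a10 and Anxa2, which bind plasminogen at the cell surface, averaged 1190 and 776 FPKM in Sham, 1250 and 918 with CPIP and 1309 and 969 in CPIP+EA. For Anxa2 all Sham libraries (709 to 829 FPKM) lay below the CPIP (885 to 972) and CPIP+EA libraries (954 to 998), while S100a10 overlapped. The list's sums, which these genes carry, also lay lower in Sham: 2096 to 2166 FPKM, against 2314 to 2375 with CPIP and 2361 to 2527 in CPIP+EA. The targets of Serpini1 and Serpinb2, chosen by hand after their values were seen, overlapped between groups: Plat (tissue plasminogen activator) at 48.1 to 65.5 FPKM and Plau (urokinase) at 2.51 to 5.26 FPKM. Of the coagulation genes 13 of 19 were tested and 0 passed, with 2, 0 and 2 at an unadjusted p under 0.05 in the 3 comparisons. Gas6, a growth factor related to protein S, averaged 93.0 FPKM in Sham and 80.2 and 80.4 in the others, and Tfpi, an inhibitor of the tissue factor pathway, 14.7, 13.6 and 12.9.

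Of the leukocyte serine proteases 16 of 20 were tested and 0 passed, with 0, 2 and 3 at an unadjusted p under 0.05, where 8.66%, 4.29% and 12.2% of all genes were. Ctsg, cathepsin G, averaged 3.35 FPKM in Sham, 2.22 with CPIP and 6.26 in CPIP+EA, with 14.6 FPKM in CPIP+EA replicate 3 and 0.68 to 7.15 elsewhere. Mcpt10, a mast cell protease, averaged 3.38, 3.81 and 3.41 FPKM. Of the cysteine proteases and caspases 8 of 9 were tested and 0 passed, with 2, 0 and 2 at an unadjusted p under 0.05. Ctsb and Ctsl, lysosomal cathepsins, averaged 669 and 204 FPKM in Sham, 704 and 193 with CPIP and 719 and 197 in CPIP+EA. A list of 16 genes around Serpinh1 held 10 collagen chains and 6 genes of collagen modification, folding or export (Fkbp10, P4ha1, P4hb, Plod1, Plod2, Mia3), and 0 of the 16 passed. At an unadjusted p under 0.05 there were 0, 3 and 8 of the 16, where 8.66%, 4.29% and 12.2% of all genes were. The 10 collagen chains held 0, 3 and 7 of these, with a median log2 difference of -0.09, -0.40 and -0.47, and the other 6 genes 0, 0 and 1, with a median of -0.01, -0.003 and -0.01, beside medians of -0.0064, 0.012 and 0.0014 over all genes. Fibroblast markers, a list of 8 that also holds Col1a1 and Col1a2, had medians of -0.12, -0.29 and -0.46. Of these markers 1, 0 and 4 had an unadjusted p under 0.05, and their part in the collagen values was not tested. Col3a1 averaged 208, 187 and 137 FPKM and Col1a1 199, 168 and 112 FPKM in Sham, CPIP and CPIP+EA. The 2 lowest libraries for both were CPIP+EA replicates 1 and 2, which were also among the 3 lowest for Serpinh1.

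Of the protease inhibitors outside the serpin family 26 of 33 were tested and 0 passed, with 5, 1 and 7 at an unadjusted p under 0.05, where 8.66%, 4.29% and 12.2% of all genes were. Cst3, cystatin C, averaged 1898, 2000 and 2023 FPKM in Sham, CPIP and CPIP+EA, above every serpin, and Spock2, a testican proteoglycan, 296, 332 and 320 FPKM. Of the acute phase genes and those of the gp130-STAT3 route, which drives clade A genes in liver, 23 of 26 were tested and 0 passed, with 4, 1 and 4 at an unadjusted p under 0.05, against the same shares of all genes. Lifr, a receptor of that route, averaged 67.2 FPKM in Sham, 87.2 with CPIP and 84.5 in CPIP+EA, and Jak1, its kinase, 65.6, 68.6 and 74.1 FPKM. Outside the collagen list, the medians of the 6 lists lay between -0.21 and 0.15 in CPIP against Sham, -0.07 and 0.10 in CPIP+EA against CPIP and -0.05 and 0.13 in CPIP+EA against Sham, on the log2 scale.

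The libraries held the defining genes of sensory neurons, with Prph at 920 to 1365 FPKM and Scn10a at 32.8 to 71.5 FPKM. Of 105 marker genes of 11 cell types, 104 were in the table. Satellite glia markers, which cover the cells that wrap neuron bodies, summed to 3852 to 3984 FPKM in Sham, 4039 to 4354 with CPIP and 4262 to 4442 in CPIP+EA, and the sums of the other 10 lists, which a few abundant genes can carry, overlapped between Sham and both groups. Apoe alone made up 3420 to 3525, 3580 to 3935 and 3797 to 4006 FPKM of these sums. Without it the remaining 7 markers summed to 432 to 459 FPKM in Sham, 418 to 473 with CPIP and 436 to 511 in CPIP+EA, which overlapped. Serpina1 is abundant in liver. Of the 10 hepatocyte markers Tf, which glia also express, was at 21.4 to 59.97 FPKM, and the other 9 at no more than 2.71 FPKM, the highest being Ttr. Alb was at 0.12 to 0.40 FPKM in Sham and CPIP and 0.85 to 1.44 in CPIP+EA, and Ahsg at 0 in Sham and CPIP and 0.04 to 0.08 in CPIP+EA. Erythroid markers were highest in CPIP+EA replicate 3, at 2418 FPKM against 252 to 1471 in the other 8. Marker gene tests gave 0 calls in the 3 comparisons.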

How the data were processed

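RNA-Seq of L4-6 DRGs from 3 groups of 3 libraries was analysed. The authors filtered raw reads and deposited a table of FPKM for each gene in each library, to 2 decimals, together with log2 ratios, P-values and Q-values of their own comparisons, which were not used here. The aligner, genome build and counting strand are not given in the sources used here. Members and lists were chosen with earlier results of these data known.

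The test was limma 3.58.1 (R 4.3.3; eBayes with trend) on log2(FPKM + 0.5), with all 9 libraries in 1 fit without covariate, in genes with a mean of at least 0.1 FPKM. Two-sided p-values were adjusted by Benjamini-Hochberg across the 17187 genes. A call needed an adjusted p under 0.01, as in the study's methods, and a fold of at least 1.5 or at most 0.667. The code was tested on simulated data. Python 3.11.15, numpy 2.4.6, pandas 2.3.3 and matplotlib 3.10.9 were used.

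Every library's value is given for members with a group mean of at least 5 FPKM and members past the threshold; from each list, the 2 genes with the highest mean are named. Gene IDs of 41 of 41 members matched RefSeq (GRCr8), used for names, neighbours and promoters. The values of 1 member are not reported here, though counts over the family include it. Other pseudocounts, filters, scalings, a replicate block and leaving out each library were tried.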

Additional observations from a re-analysis of the deposited data

How the results depend on the processing

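Over 23 alternatives, counts of serpins past the threshold are given with Serpina3n, whose place against Sham the choice of the family fixes, and then without it. In CPIP against Sham they were 1 and 0 with the settings of the report, 2 and 1 with values rescaled to TPM, with median centring and with a robust trend, and 3 and 2 at an adjusted p under 0.05, the added members being Serpinb2 and, in the last, Serpina1. Leaving out 1 library gave 1 to 2 with Serpina3n, with 2 without CPIP replicate 1. In CPIP+EA against CPIP the count was 0 under all alternatives. In CPIP+EA against Sham they were 2 and 1 with the settings of the report, and 3 and 2 at an adjusted p under 0.05, where Serpina1 joined. The 1 was Serpinb2, which entered the test through the groups where it is high and which the family counts of the report leave out. A minimum mean of 1 FPKM, which leaves Serpinb2 untested, gave 1 and 0. Leaving out 1 library gave 1 to 2 with Serpina3n, and Serpinb2 passed in 3 of those 9 fits. The settings of the report tested 20 members, 19 of them other than Serpina3n, and 17187 genes. All genes past the threshold numbered 61 (0.355%) in CPIP against Sham, 56 on the TPM scale, 59 with median centring, 64 with a robust trend and 102 at an adjusted p under 0.05. In CPIP+EA against Sham they numbered 83 (0.483%), 163 at an adjusted p under 0.05 and 73 with a minimum mean of 1 FPKM. With 1 library left out they numbered 30 to 62 in CPIP against Sham and 35 to 82 in CPIP+EA against Sham. Replicate numbers are shared between groups but do not pair the libraries: of 9 same-numbered pairs 2 had a correlation of deviations over 0.1 (range -0.236 to 0.297). With the replicate number as a block the count in CPIP+EA against Sham was 1 with Serpina3n and 0 without, since Serpinb2 then had an adjusted p of 0.0157, and all genes past the threshold fell from 83 to 42 there and from 61 to 26 in CPIP against Sham. Over all alternatives the adjusted p of Serpinb2 was 0.00294 to 0.0245 in CPIP+EA against Sham and 0.00827 to 0.0599 in CPIP against Sham, and that of Serpina1 0.0204 to 0.126 and 0.0228 to 0.140. A pseudocount of 0.1 gave Serpina3n 5.57 and 5.43, and Serpinb2 2.76 and 3.05, for CPIP and CPIP+EA against Sham, and the TPM scale gave Serpinb2 2.06 and 2.30. The TPM scale makes values larger and kept the pseudocount of 0.5, which weighs less there than on the FPKM scale. Low FPKM values and 3 libraries a group limit what could be called, and the cause of these changes was not tested.

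Log2 differences that were not called changed sign in 34 cases over 19 of 39 member results, 32 of them with 1 library left out, whose ranges are given here. For CPIP against Sham they were Serpinb1a -0.061 to 0.23, Serpinb1b -0.52 to 0.049, Serpine2 -0.054 to 0.18, Serping1 -0.10 to 0.066. For CPIP+EA against CPIP they were Serpina1 -0.19 to 0.075, Serpina11 -0.092 to 0.20, Serpina3n -0.32 to 0.22, Serpinb1a -0.052 to 0.32, Serpinb1b -0.30 to 0.60, Serpinb6 -0.13 to 0.14, Serpinb9 -0.049 to 0.14, Serpine2 -0.27 to 0.0067, Serpinh1 -0.23 to 0.21, Serpini1 -0.11 to 0.058. For CPIP+EA against Sham they were Serpinb1b -0.52 to 0.38, Serpinb6 -0.26 to 0.0066, Serpinb9 -0.16 to 0.026, Serpine2 -0.18 to 0.036, Serpinh1 -0.40 to 0.040. The other 2 cases were Serpinh1 in CPIP+EA against CPIP, at -0.0086 on the TPM scale and -0.023 with quantile normalization.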
